A study of Mus musculus with 62 samples.

Results

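The 9 genes described here, Cx3cr1, P2ry12, Tmem119, Csf1r, Aif1, Trem2, C1qa, C1qb and Itgam, are transcribed mainly by microglia in the brain and, in part, by resident macrophages elsewhere. They were taken as a named list and found by mouse Entrez identifier among the 18821 genes listed over 3 tables of read counts, 1 each for the prefrontal cortex, the striatum and the liver. All 9 were listed in each table. After a filter on low counts all 9 remained among 14838 genes tested in the prefrontal cortex and among 15118 in the striatum, and 8 among 12968 in the liver, where Trem2 was left out.

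The libraries came from female mice of the inbred C57BL/6 strain that had taken by mouth a mixture of polychlorinated biphenyls, persistent chlorinated industrial compounds, called the MARBLES mixture. The doses were 0.1, 1 and 6 mg/kg, and the reference group, called vehicle here, received 0 mg/kg. The prefrontal cortex and the striatum each had 4 vehicle libraries and 5, 6 and 6 libraries at the rising doses, and the liver had 4, 4, 6 and 6, or 62 in all. Brain tissue was collected as punches per the labels' protocols, and the age of the mice and the number of doses are not given in the sources used here.

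Microglia are the resident macrophages of the brain parenchyma, and Kupffer cells are those of the liver sinusoids. Both depend on signalling through the receptor encoded by Csf1r, which binds the cytokines Csf1 and Il34, and both secrete the complement component C1q, the recognition unit that starts the classical complement cascade. Microglia in healthy brain also carry receptors for neuronal and nucleotide signals, Cx3cr1 and P2ry12, which most macrophages outside the brain express little or not at all.

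Library totals, in M counts (M, mega), lay between 8.72 and 12.1 for the 21 prefrontal cortex libraries, between 8.28 and 12.02 for the 21 of the striatum and between 7.38 and 10.2 for the 20 of the liver. Striatum libraries at 6 mg/kg held 8.55 to 9.20 M counts and vehicle ones 10.1 to 10.5 M, so depth differed between these groups. Those at 0.1 mg/kg held 8.74 to 12.02 M and those at 1 mg/kg 8.28 to 11.97 M, overlapping both. The labels matched the markers: the summed level of 6 neuronal genes was 8327 to 10451 CPM (counts per M counts of the library, scaled within a tissue) over the vehicle and 6 mg/kg libraries of the prefrontal cortex, and that of 6 hepatocyte genes in the corresponding liver libraries was 77931 to 132354 CPM. Neuronal genes summed to between 6.43 and 62.5 CPM in the liver libraries. A choroid plexus list reached 4367 CPM in 1 striatum library at 1 mg/kg, where the lowest library of that dose held 22.6 CPM.

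The level of a gene per unit length, in CPM per kilobase of its longest transcript in GENCODE vM21, put both C1q chains first in every tissue. In the prefrontal cortex C1qa averaged 37.2 ± 8.48 CPM per kilobase (SD, n = 21) and C1qb 35.7 ± 5.93, within 1 SD of each other. Csf1r followed at 23.1 ± 1.90 CPM per kilobase. P2ry12 at 10.2 ± 1.99, Tmem119 at 10.15 ± 1.91 and Cx3cr1 at 9.70 ± 0.963 CPM per kilobase formed a group whose neighbours differed by less than 1 SD. Aif1 at 4.16 ± 0.939 and Itgam at 3.98 ± 0.693 could not be ordered either, and Trem2 was lowest at 2.79 ± 0.630 CPM per kilobase. The longest transcript listed for Trem2 has 4.784 kb, so its place in the order depends on that transcript. The effect of a shorter one was not tested.

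The striatum held nearly the same order. C1qa averaged 45.1 ± 10.2 CPM per kilobase (SD, n = 21), C1qb 43.4 ± 8.21 and Csf1r 25.9 ± 2.77. Tmem119 at 12.2 ± 2.06, Cx3cr1 at 10.98 ± 1.20 and P2ry12 at 10.3 ± 2.09 again lay within 1 SD of their neighbours, as did Itgam at 4.50 ± 0.673, Aif1 at 3.97 ± 1.31 and Trem2 at 3.28 ± 0.578 CPM per kilobase.

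In the liver the list split into a present and a nearly absent set. C1qa averaged 60.5 ± 20.2 CPM per kilobase (SD, n = 20), C1qb 37.5 ± 11.4, Csf1r 9.46 ± 2.53 and Aif1 7.58 ± 2.76. The other 5 genes averaged between 0.157 (Itgam) and 0.553 (Tmem119) CPM per kilobase. Cx3cr1 had 0 to 15 counts in a liver library, P2ry12 0 to 16, Itgam 0 to 18, Tmem119 2 to 24 and Trem2 2 to 35. Each table was scaled on its own, so these levels are set side by side and were not tested between liver and brain. Kupffer cell markers were plentiful in the same libraries: a list of 7 summed to between 210 and 449 CPM in the liver, against 1.99 to 4.73 CPM in the prefrontal cortex, where 3 of the 7 were listed.

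**Figure D1:**
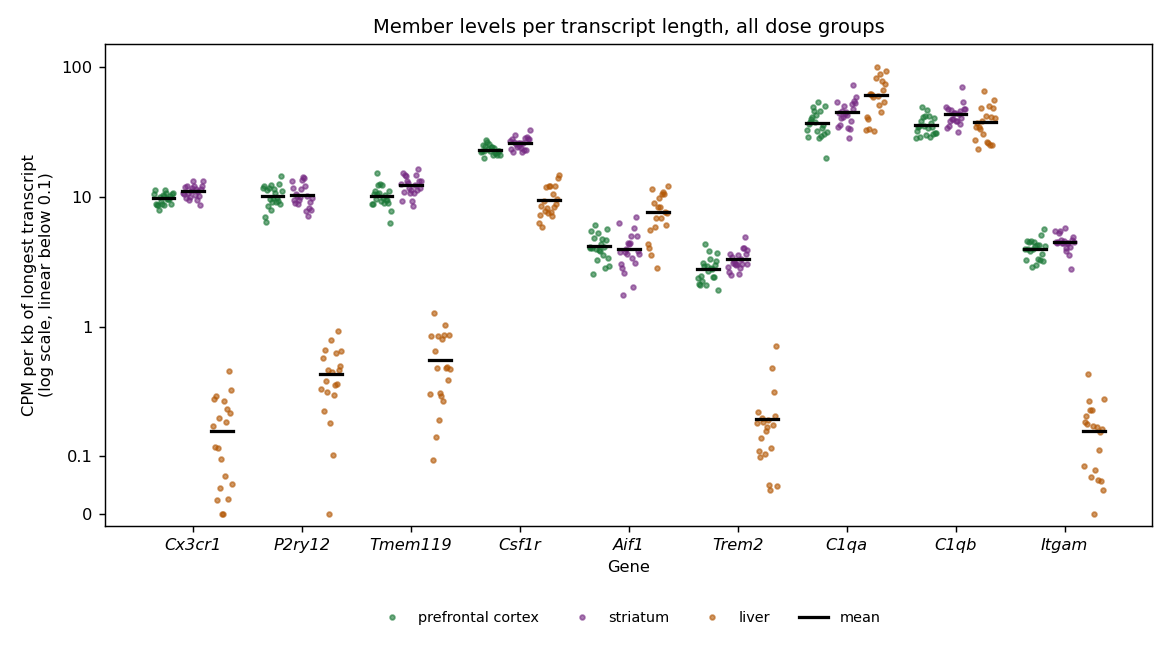
Levels of the 9 genes in CPM per kilobase of the longest transcript, on a log axis that is linear below 0.1, with a point for each library (21 prefrontal cortex, 21 striatum, 20 liver) and a bar at the mean. C1qa and C1qb lie highest in all 3 tissues, while the liver points of Cx3cr1, P2ry12, Tmem119, Trem2 and Itgam lie at or below about 1.

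RefSeq promoter windows were matched for 6 of the 9 genes, and the 250 bases before the start of transcription are shown for 4 of them. GAGGAA was taken as 1 form of the motif of PU.1, the lineage factor of macrophages encoded by Spi1. Members whose window contains GAGGAA are set beside one whose window does not. The search was for GAGGAA on both strands, and capitals mark each match, written as TTCCTC where it lies on the other strand. Windows are in GRCm38.p6 and are given 5′ to 3′ in the direction of the gene, with chr4:136886201-136886450 on the minus strand for C1qb, chr17:48346151-48346400 on the plus strand for Trem2, chr7:128062390-128062639 on the plus strand for Itgam and chr3:59262986-59263235 on the minus strand for P2ry12.
C1qb: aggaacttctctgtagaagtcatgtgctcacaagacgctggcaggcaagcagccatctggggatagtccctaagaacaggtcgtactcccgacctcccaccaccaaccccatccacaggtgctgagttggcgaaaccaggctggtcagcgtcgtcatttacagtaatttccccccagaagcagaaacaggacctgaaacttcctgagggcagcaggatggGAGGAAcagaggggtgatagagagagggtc
Trem2: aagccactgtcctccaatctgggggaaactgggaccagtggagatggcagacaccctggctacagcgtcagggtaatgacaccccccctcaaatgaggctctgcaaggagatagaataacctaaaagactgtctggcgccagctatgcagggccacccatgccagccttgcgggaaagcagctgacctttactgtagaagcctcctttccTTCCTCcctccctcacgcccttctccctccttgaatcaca
Itgam: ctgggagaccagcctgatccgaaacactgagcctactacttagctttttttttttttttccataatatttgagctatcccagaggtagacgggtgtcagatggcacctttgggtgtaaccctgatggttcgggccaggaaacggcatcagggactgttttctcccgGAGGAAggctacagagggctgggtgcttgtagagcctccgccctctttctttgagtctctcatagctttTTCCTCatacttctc
P2ry12: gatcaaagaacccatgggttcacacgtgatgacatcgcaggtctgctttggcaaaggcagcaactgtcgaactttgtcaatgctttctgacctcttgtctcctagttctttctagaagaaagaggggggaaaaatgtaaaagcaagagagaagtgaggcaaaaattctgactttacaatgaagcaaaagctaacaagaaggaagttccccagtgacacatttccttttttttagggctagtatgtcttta
The match of C1qb begins 30 bases before the start and reads with the gene, and that of Trem2 begins 40 bases before it on the other strand. Itgam has 2 matches, and Aif1, not shown, has 1 at 7 bases before the start used for its window. That window, chr17:35176053-35176302 on the minus strand, partly overlaps the Aif1 span given below. Cx3cr1 and P2ry12 have none. Shorter and variant forms of the motif were not counted, so a window without GAGGAA may hold one. GAGGAA occurs in 23.3% of the 32851 promoter windows of the same length, and the longer GAGGAAGT, which contains it, in 2.44% of them and in 0 of the 6 member windows. A match describes letters in a window and is neither a measured site nor a cause of any level.

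The genes sit on 7 chromosomes of the mouse genome build GRCm38.p6. C1qa (4:136895916-136898844, Entrez 12259) and C1qb (4:136880126-136886200, Entrez 12260) are neighbours on chromosome 4. Aif1 (17:35170986-35176083, Entrez 11629) and Trem2 (17:48346401-48352276, Entrez 83433) share chromosome 17. The others are Cx3cr1 (9:120048683-120068296, Entrez 13051), P2ry12 (3:59216271-59262985, Entrez 70839), Tmem119 (5:113793729-113800396, Entrez 231633), Csf1r (18:61105572-61131139, Entrez 12978) and Itgam (7:128062640-128118491, Entrez 16409). The GC content of the longest transcript ranged from 38.6% for P2ry12 to 59.5% for C1qa, with 59.1% for Tmem119, 57.4% for C1qb, 54.5% for Csf1r, 51.4% for Aif1, 51.0% for Trem2, 50.3% for Cx3cr1 and 48.9% for Itgam. The median over the genes tested was 49.9% in the prefrontal cortex, 49.99% in the striatum and 49.8% in the liver.

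The doses were compared with vehicle within each tissue by edgeR's quasi-likelihood test, with p-values adjusted by the Benjamini-Hochberg method over all genes tested, and a gene passed at an adjusted p under 0.05. The 3 doses of a tissue share its 4 vehicle libraries, so their contrasts are not independent of each other. These are bulk samples, in which fewer cells of a type and less RNA per cell cannot be told apart.

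In the liver the 4 well expressed members, C1qa, C1qb, Aif1 and Csf1r, had higher means at 6 mg/kg than in vehicle, and none of them passed the test by edgeR. By edgeR, 0 of the 8 members tested passed at 6 mg/kg, where 2.8% of all genes did, and 3 had an unadjusted p under 0.05 and a higher mean, as did 13.1% of all genes in that direction. The median log2 fold change of the 8 members was 0.37, against 0.02 over all genes tested. DESeq2, a second count test, called C1qa, Aif1 and Csf1r, which are 3 of the 4 members it gave an adjusted p, and 9.6% of all genes with one.

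C1qa encodes the A chain of C1q. Its 4 vehicle livers held 34.2, 42.5, 41.6 and 34.5 CPM, and the 6 livers at 6 mg/kg ranged from 46.7 to 96.6 CPM with a median of 72.8. Every liver at 6 mg/kg lay above every vehicle liver, which was the case for 3.26% of all genes and, among the members, for C1qa and Aif1. The means were 70.8 ± 18.0 CPM (SD, n = 6) and 38.2 ± 4.47 CPM (SD, n = 4). On the log2 scale the difference was 0.89 (SE 0.245), with an adjusted p of 0.0505 by edgeR. The lower doses had similar means. At 0.1 mg/kg the livers held 64.5, 63.9, 62.7 and 60.6 CPM, all above vehicle and close to each other. At 1 mg/kg they ranged from 33.2 to 102.9 CPM with a median of 73.9, overlapping vehicle.

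C1qb, the B chain, also had the higher mean at 6 mg/kg, with more overlap. Vehicle livers held 29.9, 37.3, 40.2 and 25.5 CPM and livers at 6 mg/kg 27.1 to 60.0 CPM with a median of 44.4, so the groups overlapped. The log2 fold change was 0.36 (SE 0.261) with an adjusted p of 0.405 by edgeR. C1qc, the remaining chain and no member, gave 0.24 (SE 0.286, adjusted p = 0.632 by edgeR), and the differences among the 3 chains were not tested.

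Aif1 encodes the calcium-binding protein Iba1, a stain for microglia and macrophages. Vehicle livers held 3.77, 3.54, 4.85 and 3.09 CPM, from 26 to 46 counts each, and livers at 6 mg/kg 5.31 to 10.7 CPM with a median of 7.94. The groups did not overlap. The means were 7.99 ± 2.09 CPM (SD, n = 6) and 3.81 ± 0.747 CPM (SD, n = 4), which is a log2 difference of 1.06 (SE 0.301, adjusted p = 0.0553 by edgeR). At 0.1 mg/kg the values of 10.01, 7.77, 5.08 and 6.03 CPM also lay above every vehicle liver. At 1 mg/kg the range of 2.46 to 9.13 CPM included a value below all of vehicle.

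Csf1r had the steadiest sequence of means over dose. Vehicle livers held 29.6, 33.7, 40.1 and 27.6 CPM, those at 0.1 mg/kg 43.5, 36.7, 55.5 and 38.3, those at 1 mg/kg 33.3 to 56.9 with a median of 42.6, and those at 6 mg/kg 39.0 to 68.5 with a median of 51.2. Each treated group overlapped vehicle at its lower end. Its log2 fold change at 6 mg/kg was 0.69 (SE 0.206, adjusted p = 0.0669 by edgeR). Over dose rank (vehicle, 0.1, 1 and 6 mg/kg as equal steps) the slope of log2 level was 0.21 per step for Csf1r (SE 0.063, adjusted p = 0.0575), 0.27 for C1qa (SE 0.084, adjusted p = 0.0622) and 0.28 for Aif1 (SE 0.099, adjusted p = 0.0884), all by edgeR. Of the 8 members, 0 passed for the slope, where 4.81% of all genes did, and these 3 had an unadjusted p under 0.05, as did 25.4% of all genes in either direction. DESeq2 called these 3 of the 7 members with an adjusted p, and 9.89% of all genes.

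**Figure D2:**
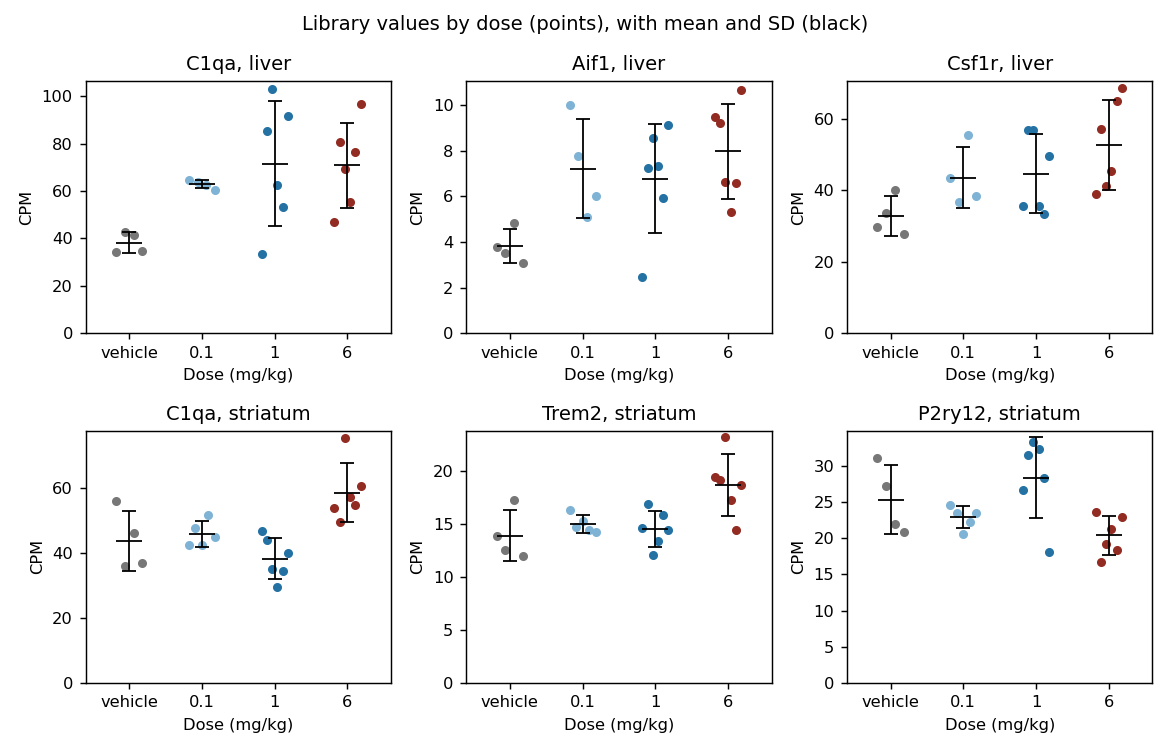
CPM of C1qa, Aif1 and Csf1r in the liver (top) and of C1qa, Trem2 and P2ry12 in the striatum (bottom) by dose, with a point for each library and the mean and SD in black. Liver C1qa and Aif1 at 6 mg/kg lie above every vehicle library, whereas the other 4 panels show overlap between 6 mg/kg and vehicle.

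At the lower doses 0 members passed in the liver by edgeR or by DESeq2, where 0.0154% of all genes passed at 0.1 mg/kg and 0% at 1 mg/kg by edgeR. By DESeq2 the shares were 0.0804% and 0.12%. At 0.1 mg/kg Aif1 gave a log2 fold change of 0.92 (SE 0.322, adjusted p = 0.994 by edgeR) and C1qa 0.72 (SE 0.262, adjusted p = 0.994). These 2 members had an unadjusted p under 0.05, against 4.11% of all genes. They were also the members with every liver above every vehicle liver, a pattern of 2.14% of all genes. At 1 mg/kg C1qa gave 0.90 (SE 0.245, adjusted p = 0.412 by edgeR), Aif1 0.82 (SE 0.300, adjusted p = 0.541) and Csf1r 0.44 (SE 0.205, adjusted p = 0.579). The unadjusted p was under 0.05 for these 3 and for 8.44% of all genes. No member's livers at 1 mg/kg all lay above vehicle, as did those of 0.848% of all genes. These estimates depended on the fit. Over 8 alternative fits, both GC corrections among them, the lowest value at 1 mg/kg was 0.06 for C1qa and 0.07 for Aif1. At 0.1 mg/kg the lowest was 0.53 for C1qa and 0.74 for Aif1.

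The 4 sparse members tested in the liver carried no measurable dose difference at this depth. At 6 mg/kg the log2 fold change was 0.39 (SE 0.595) for P2ry12, -0.27 (SE 0.660) for Itgam, 0.02 (SE 0.760) for Cx3cr1 and -0.01 (SE 0.597) for Tmem119. Each estimate was smaller than its standard error, so a change of the size seen for C1qa could not be told from none. Trem2 was below the filter. Its vehicle livers held 0.476 to 1.05 CPM and those at 6 mg/kg 0.234 to 3.39 CPM, with 35 counts in the highest library.

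The liver values moved with a property of the libraries. The GC slope of a library is the Spearman correlation across genes between its deviation from the tissue mean and the GC content of the longest transcript, and a positive slope means that GC-rich transcripts are counted more. It was -0.282 to -0.162 in vehicle livers, -0.154 to -0.140 at 0.1 mg/kg, -0.258 to 0.318 at 1 mg/kg and -0.019 to 0.238 at 6 mg/kg, so vehicle and 6 mg/kg did not overlap. Within dose groups, after the group means were removed, log2 C1qa correlated with the slope over the 20 livers at r = 0.90 (rho = 0.84, and r = 0.80 without the 2 livers farthest from the median). For Aif1 the values were r = 0.72, rho = 0.50 and r = 0.46, and for Csf1r r = 0.64, rho = 0.58 and r = 0.60. Level and slope come from the same library and the gene itself enters the slope among all others, so these are descriptions without a p-value.

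With the GC slope as a term of the edgeR fit, chosen after seeing the data, the log2 fold change at 6 mg/kg was -0.03 for C1qa (adjusted p = 0.963), 0.22 for Aif1 (adjusted p = 0.855) and 0.17 for Csf1r (adjusted p = 0.83). With an offset for GC content and length instead, also chosen then, it was 0.69 for C1qa (adjusted p = 0.0634), 1.15 for Aif1 (adjusted p = 0.0356) and 0.53 for Csf1r (adjusted p = 0.127). The slope and the top dose overlap in what they separate, and their parts in the result cannot be told apart. Haemoglobin and other red cell genes summed to 47.8, 59.8, 1173 and 3064 CPM in the vehicle livers and 69.3 to 229 CPM at 6 mg/kg. Without vehicle animal 7, the highest of that group for Csf1r and Aif1, the log2 fold changes were 0.94 for C1qa (adjusted p = 0.088), 1.20 for Aif1 (adjusted p = 0.0804) and 0.80 for Csf1r (adjusted p = 0.0821).

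**Figure D3:**
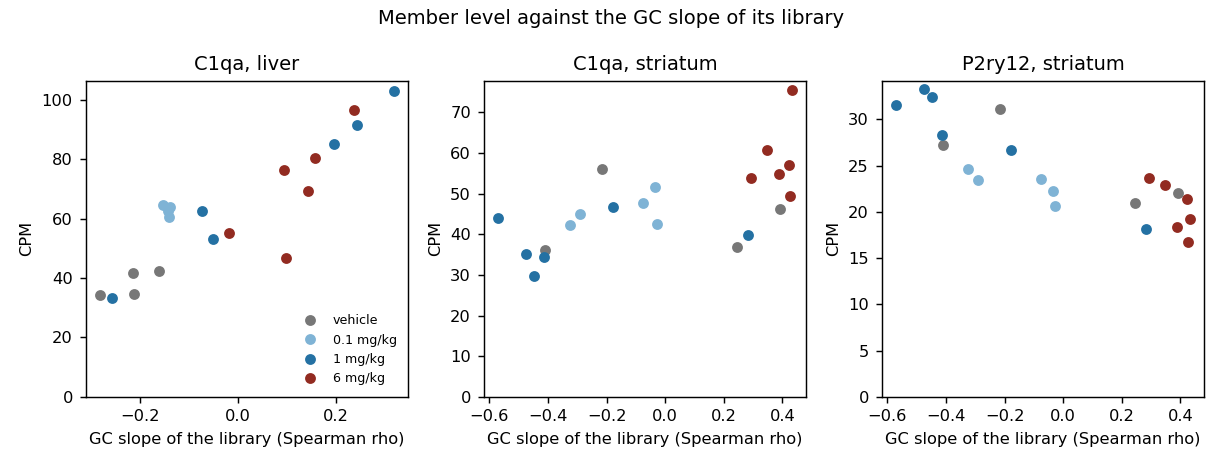
CPM of C1qa in the liver, C1qa in the striatum and P2ry12 in the striatum against the GC slope of the library (Spearman rho across genes), with a point for each library coloured by dose. Liver C1qa runs upward and striatal P2ry12 downward with the slope, and in both tissues the 6 mg/kg libraries lie toward its upper end.

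Genes that work with the members were compared at 6 mg/kg in the liver in the same way, and the count of each list stands beside the 2.8% of all genes that passed there. Neither GC correction was read out for these lists, so the part of the GC slope in their values was not tested. Of 11 complement and Fc receptor partners tested, 1 passed: Syk, the kinase that receives signals from Fc receptors and Trem2, rose by a log2 fold change of 1.18 (SE 0.276, adjusted p = 0.0293 by edgeR). Tyrobp, the adaptor of Trem2, gave 1.08 (adjusted p = 0.0638) and Fcgr1, the high-affinity IgG receptor, 1.08 (adjusted p = 0.0525), neither passing. Of 6 ligands of the members' receptors and complement proteins, Csf1 rose by 0.73 (SE 0.193, adjusted p = 0.0437), and it is the ligand of the Csf1r product. The median log2 fold change was 0.43 over the 11 partners and 0.23 over the 6 ligands, beside 0.02 over all genes.

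Among 7 Kupffer cell markers Clec4f, a lectin restricted to these cells, rose by 0.93 (SE 0.226, adjusted p = 0.0333 by edgeR), Timd4 gave 0.99 (adjusted p = 0.0557), and the list median was 0.43. The lowest values were those of Marco at -0.06, Nr1h3 at 0.06 and Vsig4 at 0.17. The summed level of the 7 was 210 to 296 CPM in vehicle livers and 247 to 435 CPM at 6 mg/kg, with overlap. Of the genes induced in disease-associated microglia, 9 were tested and 1 passed: Cd9, a tetraspanin that hepatic cells also express, fell by 1.04 (SE 0.223, adjusted p = 0.0214). Of these 9, 6 had higher means at 6 mg/kg, with a list median of 0.22. Lgals3, a galectin, gave 1.09 (SE 0.355, adjusted p = 0.0838) and Axl, a receptor kinase, 0.60 (SE 0.191, adjusted p = 0.0792). Monocyte and neutrophil genes, 8 of 10 listed, summed to 10.2 to 18.8 CPM in vehicle and 12.6 to 23.7 CPM at 6 mg/kg, and their part in the members' values was not tested. None of the 11 pan-macrophage genes, the 8 further homeostatic microglia genes or the 5 myeloid transcription factors tested passed, and Spi1, which encodes PU.1, gave 1.01 (adjusted p = 0.0698). The pan-macrophage values ran from -0.27 for Ctss to 0.65 for Cd68, around a median of 0.13. Those of the homeostatic genes lay on both sides of 0, from -0.24 for Selplg to 0.60 for P2ry13.

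Over dose rank in the liver, genes of these lists also passed by edgeR, as did 4.81% of all genes. The slopes of log2 level per step were 0.35 for Fcgr1 (adjusted p = 0.0335), 0.33 for Syk (adjusted p = 0.0428), 0.24 for Csf1 (adjusted p = 0.0335), 0.34 for Spi1 (adjusted p = 0.0372), 0.27 for Clec4f (adjusted p = 0.0369), 0.31 for Timd4 (adjusted p = 0.0406) and -0.30 for Cd9 (adjusted p = 0.0266). They include the ligand of the Csf1r product, an Fc receptor, a kinase that acts after it and 2 Kupffer cell markers. The part of the GC slope in these values was not tested either.

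**Figure D4:**
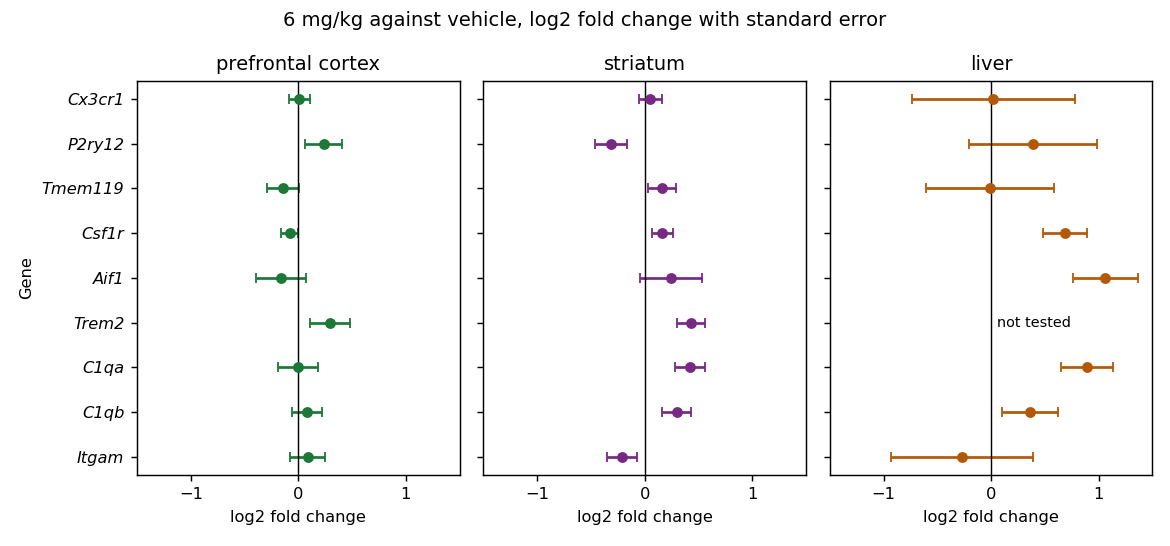
Log2 fold change at 6 mg/kg against vehicle with its standard error for each gene and tissue, from edgeR. In the liver C1qa, Aif1 and Csf1r lie between 0.69 and 1.06, in the striatum Trem2 and C1qa lie near 0.42 and P2ry12 at -0.31, and in the prefrontal cortex every gene lies between -0.16 and 0.29.

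In the striatum the C1q chains and Trem2 had higher means at 6 mg/kg than in vehicle and P2ry12 a lower one, but 0 of 9 members passed by edgeR, as did 0% of all genes, and 0 of the 8 with an adjusted p passed by DESeq2, which called 0.254% of all genes. An unadjusted p under 0.05 was reached by 4 members, 3 of them higher and 1 lower, where 7.48% of all genes were higher and 8.24% lower at that level. The median log2 fold change was 0.16 over the members and 0.01 over all genes. No member's libraries at 6 mg/kg all lay above vehicle, a pattern of 1.67% of all genes.

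Trem2 encodes a lipid-sensing receptor of microglia that signals through the adaptor Tyrobp. Vehicle striata held 13.9, 12.5, 17.3 and 11.96 CPM, those at 0.1 mg/kg 16.3, 14.7, 15.2, 14.5 and 14.3, those at 1 mg/kg 12.1 to 16.9 with a median of 14.5, and those at 6 mg/kg 14.4 to 23.2 with a median of 18.9. Vehicle animal 7, at 17.3 CPM, lay inside the range of the top dose, and the other 3 vehicle libraries lay below it. The means were 18.7 ± 2.89 CPM (SD, n = 6) and 13.9 ± 2.39 CPM (SD, n = 4), which is a log2 difference of 0.43 (SE 0.130, adjusted p = 0.208 by edgeR). Its slope over dose rank was 0.13 per step (SE 0.042, adjusted p = 0.28).

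C1qa in the striatum was 55.96, 36.1, 46.2 and 36.9 CPM in vehicle, 42.3, 47.7, 42.4, 51.7 and 45.1 at 0.1 mg/kg, 29.7 to 46.7 with a median of 37.5 at 1 mg/kg, and 49.4 to 75.4 with a median of 55.96 at 6 mg/kg. The top dose overlapped vehicle through 1 vehicle library, and the libraries at 1 mg/kg lay lowest. The log2 fold change at 6 mg/kg was 0.42 (SE 0.137, adjusted p = 0.208 by edgeR) and that at 1 mg/kg -0.19 (SE 0.137, adjusted p = 0.745), so the means did not follow dose. C1qb had 53.4, 36.8, 51.3 and 38.2 CPM in vehicle and 44.1 to 75.5 with a median of 51.7 at 6 mg/kg, overlapping, with 0.30 (SE 0.136, adjusted p = 0.298). C1qc gave 0.31 (SE 0.138, adjusted p = 0.288), close to its partners in size.

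P2ry12 encodes the ADP receptor by which microglial processes find injury. Vehicle striata held 31.1, 27.2, 22.0 and 20.9 CPM, those at 0.1 mg/kg 24.6, 23.5, 20.65, 22.3 and 23.5, those at 1 mg/kg 18.1 to 33.3 with a median of 29.9, and those at 6 mg/kg 16.8 to 23.7 with a median of 20.3. Groups overlapped, and the highest values were at 1 mg/kg. The log2 fold change at 6 mg/kg was -0.31 (SE 0.146, adjusted p = 0.304 by edgeR).

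The remaining 5 striatal members had an unadjusted p above 0.05 at 6 mg/kg. Their log2 fold changes were 0.16 (SE 0.0946) for Csf1r, 0.16 (SE 0.132) for Tmem119, a transmembrane marker of microglia, 0.05 (SE 0.109) for Cx3cr1, the fractalkine receptor, -0.21 (SE 0.139) for Itgam, the alpha chain of complement receptor 3, and 0.25 (SE 0.290) for Aif1. Aif1 had 16 to 57 counts in a striatum library and the widest error. At the lower doses 0 of 9 members passed by edgeR or by DESeq2, with 0% of all genes by edgeR. DESeq2 called 0.0303% of all genes for 1 mg/kg and 0% for 0.1 mg/kg. Of the members 0 had an unadjusted p under 0.05, against 7.36% of all genes for 1 mg/kg, and against 2.53% for 0.1 mg/kg. For 0 of them did all libraries lie above vehicle, against 0.456% and 0.807% of all genes. The smallest p-values at 1 mg/kg belonged to Tmem119 with -0.19 (SE 0.132, adjusted p = 0.745) and C1qa, given above. Those at 0.1 mg/kg belonged to Tmem119 with 0.17 (SE 0.137, adjusted p = 1) and Aif1 with -0.34 (SE 0.305, adjusted p = 1). For the slope over dose rank 0 of 9 passed by edgeR or DESeq2, with 0% of all genes by edgeR and 0.0996% by DESeq2, and 2 members, Trem2 and C1qa, had an unadjusted p under 0.05, against 13.1% of all genes. With dose in mg/kg in place of rank, C1qa, C1qb and Trem2 passed, 3 of 9 members, as did 12.3% of all genes.

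GC slopes in the striatum were 0.291 to 0.432 at 6 mg/kg and -0.410 to 0.392 in vehicle, where 2 libraries lay below 0 and 2 above. Within dose groups P2ry12 correlated with the slope at r = -0.84 over 21 libraries (rho = -0.82, r = -0.78 without the 2 farthest), while C1qa gave r = 0.18 and Trem2 r = 0.14. With the slope as a term of the fit the log2 fold change at 6 mg/kg was 0.39 for Trem2 (adjusted p = 0.368), 0.36 for C1qa (adjusted p = 0.4) and 0.01 for P2ry12 (adjusted p = 0.982) by edgeR. Trem2 and C1qa thus had similar values with and without the term and P2ry12 did not. With the GC and length offset they were 0.50 for Trem2, 0.18 for C1qa and -0.25 for P2ry12.

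Partner genes in the striatum at 6 mg/kg showed 0 calls in every list by edgeR. Of the 12 further genes of homeostatic microglia, Selplg at 0.26 (SE 0.118, adjusted p = 0.301) and Itgb5 at 0.18 (SE 0.0869, adjusted p = 0.317) had an unadjusted p under 0.05, and the list median was 0.10. Among 10 pan-macrophage genes tested, Laptm5, a lysosomal membrane protein, gave 0.25 (SE 0.0846, adjusted p = 0.208) and Lyz2, lysozyme, 0.39 (SE 0.187, adjusted p = 0.317), with a median of 0.15. Apoe, a lipid carrier induced in disease-associated microglia and made chiefly by astrocytes, gave 0.36 (SE 0.137, adjusted p = 0.237). Lower means with an unadjusted p under 0.05 were those of Ptgs2, a prostaglandin synthase among 3 inflammatory genes tested, at -1.39 (SE 0.392, adjusted p = 0.208), and Mef2c, among 6 myeloid transcription factors, at -0.56 (SE 0.249, adjusted p = 0.29). Neurons also express both genes. Markers of other myeloid cells overlapped between the groups: 7 border-associated macrophage genes summed to 8.09 to 15.0 CPM in vehicle and 8.74 to 12.5 CPM at 6 mg/kg, and monocyte and neutrophil genes to 0.481 to 0.797 and 0.336 to 1.24 CPM, with 5 of 10 listed. Markers of other tissue cells also differed in their means, none passing by edgeR. All 6 oligodendrocyte markers had higher means at 6 mg/kg, by 0.25 to 0.49, with an unadjusted p under 0.05 for Mag and Mbp, and their sum was 4381 to 6618 CPM in vehicle and 6597 to 9234 CPM at 6 mg/kg. All 6 neuronal markers had lower means, with sums of 4443 to 6515 and 3801 to 5032 CPM. The 3 red cell genes tested gave -1.31 to -1.46, each with an unadjusted p under 0.05, with sums of 68.2 to 545 and 43.8 to 139 CPM. Their part in the members' values was not tested.

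In the prefrontal cortex the members' estimates at 6 mg/kg lay on both sides of 0. By edgeR 0 of 9 members passed at any dose, as did 0% of all genes at each dose. By DESeq2 0 members passed, of 4 with an adjusted p at 6 mg/kg and 9 at each lower dose, while 0.377%, 0% and 0.00566% of all genes passed at 6, 1 and 0.1 mg/kg. At 6 mg/kg 0 members had an unadjusted p under 0.05, against 9.27% of all genes, and 0 had every library above vehicle, against 1.19%. The median log2 fold change was 0.01 over the members and 0.00 over all genes. The smallest p-values were those of Trem2, at 0.29 (SE 0.185, adjusted p = 0.65), and of P2ry12, at 0.24 (SE 0.173, adjusted p = 0.706).

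Trem2 in the prefrontal cortex was 11.2, 10.1, 9.93 and 11.7 CPM in vehicle, 10.7, 14.7, 13.9, 20.6 and 9.96 at 0.1 mg/kg, 12.8 to 18.4 with a median of 13.8 at 1 mg/kg, and 9.08 to 17.6 with a median of 12.9 at 6 mg/kg. Every library at 1 mg/kg lay above vehicle, a pattern of 1.06% of all genes, while the groups on either side overlapped vehicle. The log2 fold change at 1 mg/kg was 0.45 (SE 0.184, adjusted p = 0.588 by edgeR), and Trem2 was the 1 member with an unadjusted p under 0.05 there, against 8.3% of all genes. At 0.1 mg/kg it was 0.38 (SE 0.191, adjusted p = 0.741). The mean was thus highest at 1 mg/kg in the prefrontal cortex and at 6 mg/kg in the striatum. The difference between these patterns was tested for 6 mg/kg alone.

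C1qa in the prefrontal cortex was 33.8, 29.7, 37.6 and 39.0 CPM in vehicle and 41.2, 42.7, 51.1, 47.6 and 39.1 CPM at 0.1 mg/kg, so that every library of the lowest dose lay above vehicle, by a narrow margin at its lower end. This held for 0.923% of all genes. Its log2 fold change was 0.34 (SE 0.195, adjusted p = 0.741 by edgeR), and 0 members had an unadjusted p under 0.05 at that dose, against 6.42% of all genes. C1qa spanned 29.7 to 55.9 CPM at 1 mg/kg and 20.8 to 52.3 CPM at 6 mg/kg, and its log2 estimate at the top dose was -0.0019 (SE 0.188). C1qb at 1 mg/kg gave 0.19 (SE 0.140, adjusted p = 0.624).

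P2ry12 in the prefrontal cortex was 27.4, 28.4, 16.3 and 14.9 CPM in vehicle and 20.7 to 34.1 with a median of 24.4 at 6 mg/kg. The vehicle libraries formed a high and a low pair, and the top dose overlapped the high pair. Over dose rank the smallest p-values were those of P2ry12, with a slope of 0.08 per step (SE 0.052, adjusted p = 0.636 by edgeR), and Tmem119, with -0.07 (SE 0.051, adjusted p = 0.666). By edgeR 0 of 9 members passed for the slope and 0 had an unadjusted p under 0.05, against 0.0202% and 9.79% of all genes, and DESeq2 called 0 members and 0.416% of all genes. Csf1r, the most evenly expressed member, was 102.9, 105.1, 118.1 and 106.4 CPM in vehicle and 98.5 to 105.5 with a median of 102.4 at 6 mg/kg, a log2 fold change of -0.08 (SE 0.0813). None of the partner lists had a member that passed at 6 mg/kg in the prefrontal cortex. The 12 further homeostatic genes summed to 290 to 312 CPM in vehicle and 299.5 to 349 CPM at 6 mg/kg.

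The regions were compared in a joint fit of both brain tables over 15402 genes, as the mean of the 4 differences within dose groups. C1qb and Tmem119 were higher in the striatum, and these 2 of 9 members passed by edgeR and by DESeq2. By edgeR 56.1% of all genes passed in either direction, and 29.1% passed with the higher level in the striatum, beside 2 of the 9 members. By DESeq2 52.1% of all genes passed. C1qb averaged 45.8 ± 8.55 CPM (SD, n = 21; 33.3 to 72.9) in the striatum and 40.0 ± 6.65 CPM (SD, n = 21; 31.5 to 54.9) in the prefrontal cortex, with wide overlap. The log2 difference was 0.19 (SE 0.069, adjusted p = 0.0175 by edgeR). Tmem119 averaged 26.6 ± 4.40 CPM (18.6 to 35.1) and 23.4 ± 4.41 CPM (14.4 to 35.1), a log2 difference of 0.18 (SE 0.068, adjusted p = 0.0218).

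The regional difference of both genes was not even over dose. Means of C1qb in the striatum and the prefrontal cortex were 43.6 and 36.3 CPM in vehicle, 44.0 and 43.0 with 0.1 mg/kg, 41.1 and 41.6 with 1 mg/kg, then 53.3 and 38.3 at the top dose. For Tmem119 they were 25.9 and 22.5, 29.1 and 26.8, 22.8 and 24.3, and 28.9 and 20.4 CPM in the same order. At 1 mg/kg neither gene had the higher mean in the striatum. Both transcripts are GC-rich, at 57.4% for C1qb and 59.1% for Tmem119. Median GC slopes of the striatum and the prefrontal cortex were 0.0154 and -0.0386 in vehicle and -0.0764 and 0.0653 with 0.1 mg/kg. They were -0.431 and 0.0877 with 1 mg/kg, then 0.404 and -0.254 at the top dose. Each slope was taken against the mean of its own tissue. The regional comparisons were not refitted with either GC correction, so the part of the slope in them was not tested. Leaving out vehicle animal 3 left 0 members passing, with adjusted p = 0.0734 for C1qb and 0.0564 for Tmem119, and leaving out animal 45 of the 1 mg/kg group gave 4, namely C1qa, C1qb, Tmem119 and Trem2.

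The other 7 members did not pass between regions. C1qa gave a log2 difference of 0.18 (SE 0.082, adjusted p = 0.0672 by edgeR) and Trem2 0.16 (SE 0.077, adjusted p = 0.0837), and P2ry12 gave -0.06 (adjusted p = 0.539). The median over the 9 was 0.10, against 0.01 over all genes. With the animal number of the labels as a replicate block, C1qa passed as well, at 0.19 (adjusted p = 0.0419). In that fit 58.2% of all genes passed.

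Other genes of the microglial lists were compared between the regions in the same fit, and their counts stand beside the 56.1% of all genes that passed. Of the 12 further homeostatic genes 4 passed. Sall1, a transcription factor of microglial identity, was higher in the striatum by 0.45 (SE 0.0704, adjusted p = 5.35e-07 by edgeR), Selplg by 0.40 and Itgb5 by 0.32, while Fcrls was lower by a log2 difference of -0.16. Of the 10 pan-macrophage genes tested, 6 passed and all were higher, among them Cd68, a lysosomal glycoprotein, at 0.38, Laptm5 at 0.31 and Cyba, an oxidase subunit, at 0.52. Both Csf1r ligands passed in opposite directions: Csf1, made chiefly by glia, was higher in the striatum by 0.40 (SE 0.0682, adjusted p = 3.17e-06) and Il34, made by neurons, gave -0.55 (SE 0.0739, adjusted p = 3.01e-08). Cx3cl1, the neuronal ligand of Cx3cr1, gave -0.36, while Cx3cr1 itself gave 0.09 (adjusted p = 0.105). C1qc passed at 0.30 (adjusted p = 0.000594).

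The regional values stand beside differences in tissue make-up whose part was not tested. All 6 oligodendrocyte markers were higher in the striatum, by log2 differences of 0.94 to 1.17, all 5 choroid plexus markers were higher, and 5 of 6 neuronal markers were lower. Of 5 border-associated macrophage markers tested 4 were lower in the striatum, among them Mrc1 at -0.66 and Lyve1 at -0.79, and all 7 of that list summed to no more than 20.04 CPM in any vehicle or 6 mg/kg brain library.

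The last comparison asked whether the effect of 6 mg/kg differed between the regions, and no member passed. By edgeR 0 of 9 members and 0% of all genes passed for the difference of the effects, DESeq2 called 0 members and 0% of all genes, and 1 member had an unadjusted p under 0.05, against 6.83% of all genes. That member was P2ry12, with a difference of -0.56 (SE 0.235, adjusted p = 0.719). The next was Csf1r at 0.24 (SE 0.120, adjusted p = 0.72). The interval of these estimates is wide: C1qa gave 0.41 (SE 0.241, adjusted p = 0.727), close in size to its effect in the striatum. At 6 mg/kg P2ry12 averaged 19.7 CPM in the striatum and 26.6 CPM in the prefrontal cortex. Its striatal log2 fold change was -0.31 without the GC slope as a term of the fit and 0.01 with it. The difference between the regions was not recomputed with that term or with the GC and length offset, for P2ry12 or any other member.

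The members varied together only in part. Pearson correlations were taken between log2 levels over the libraries of a tissue after dose-group means were removed, and they share library, scaling and base composition, so they are descriptions. In the prefrontal cortex 22 of 36 pairs were positive with a median of 0.098, in the striatum 25 of 36 with a median of 0.21, and in the liver 14 of 28 with a median of 0.033. Both C1q chains were among the closest pairs in the brain, with r = 0.75 (rho = 0.81) in the prefrontal cortex and r = 0.79 (rho = 0.75) in the striatum. In the liver their r was 0.56 (rho = 0.60).

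The closest pairs differed between tissues. In the prefrontal cortex the receptors Cx3cr1 and P2ry12 had r = 0.80 (rho = 0.80, r = 0.73 without the 2 farthest libraries), while Tmem119 went with C1qa at r = 0.74 and with C1qb at r = 0.72. P2ry12 and Tmem119 followed the GC slope in opposite directions there, at r = -0.68 and r = 0.71. In the striatum Tmem119 and Trem2, with r = 0.74 (rho = 0.71), came after the C1q chains. In the liver Csf1r had r = 0.84 with C1qb (rho = 0.82) and r = 0.76 with C1qa (rho = 0.82), and Aif1 had r = 0.71 with C1qa, which was 0.43 without the 2 farthest livers. Itgam stood apart in the prefrontal cortex, where its r with C1qa was -0.51 and with the mean of the other members -0.32.

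**Figure D5:**
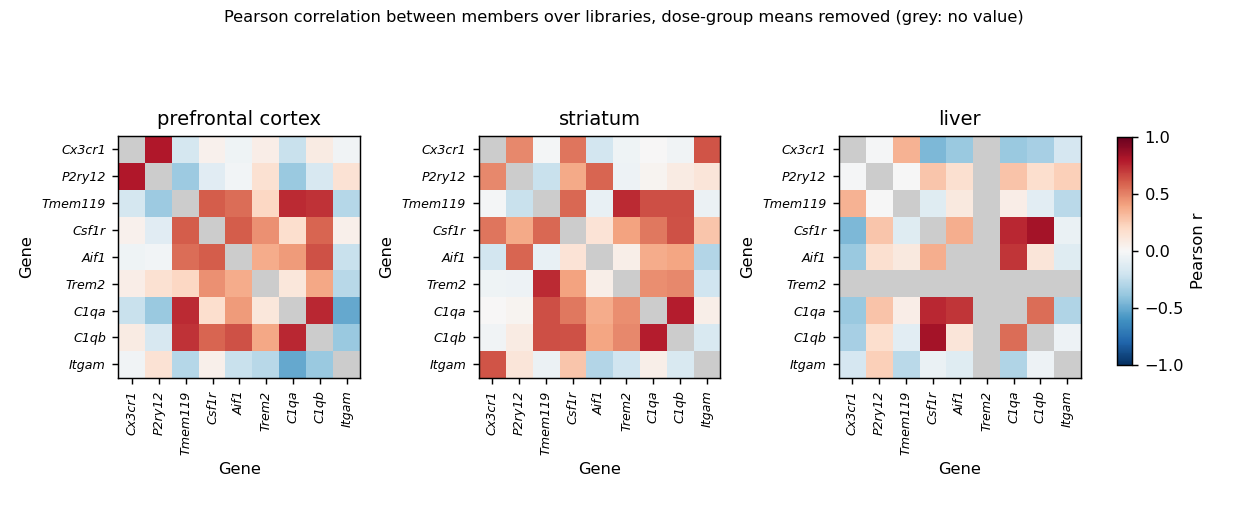
Pearson r between the log2 levels of each pair of genes over 21 prefrontal cortex, 21 striatum and 20 liver libraries after dose-group means were removed, with grey for the diagonal and for Trem2 in the liver, which was below the filter. A red block around Tmem119, C1qa and C1qb is visible in both brain regions, and in the liver the strongest square is Csf1r with C1qb at 0.84.

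The genes whose levels went most closely with the mean of the standardised members differed by tissue. Over 21 prefrontal cortex libraries and 14829 other genes they were Vtn (r = 0.89), Apod (0.87), Prdx6 (0.87), Cd63 (0.87) and Clu (0.83). In the striatum they were Fgf3 (0.81), Xrcc4 (0.81), Pde6h (0.80), Arhgdib (0.80) and Acy1 (0.79) among 15109. In the 20 livers they were Cyba (0.85), Ppp1r18 (0.83), Spsb3 (0.82), Cfp (0.82) and Tgfb1 (0.81) among 12960. These are the extremes of many correlations, and the lists of the 3 tissues had no gene in common.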

How the data were processed

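RNA from 62 samples was sequenced, and the authors deposited whole-number read counts per gene, 1 table for each tissue with Entrez identifiers. Reads were handled with FastQC and HISAT2 on mm10, per the submitters' processing notes; the counting tool and its use of strand are not given in the sources used here. Per the labels' protocols, messenger RNA was enriched by poly(A) selection or by depletion of ribosomal RNA, and which of them is not said. The smallest total of a listed gene was 10 counts. Library totals are given above. Columns were matched to samples by title and grouped by treatment label. The labels do not say that samples came from separate animals, so p-values measure the spread between these samples.

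Symbols came from RefSeq GRCm38.p6 (99.97% of prefrontal cortex, 99.95% of striatum and 99.95% of liver identifiers), and GC content and length from the longest GENCODE vM21 transcript (95.3%, 95.4% and 96.5% of genes tested). Genes were kept by filterByExpr (minimum count 10) and fitted in R 4.3.3 with edgeR 4.0.16 (quasi-likelihood, robust, TMM scaling, all dose groups of a tissue together). Each standard error was derived as |log2 fold change| over the root of F. CPM are TMM-scaled, with a prior count of 2 on the log2 scale. No pair of libraries agreed within sampling noise (smallest chi-square per degree of freedom 2.94).

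The members and gene lists were chosen with earlier results of these data known. Members are given in full where they passed a contrast or, with fewer than 2 passing, as the 2 with the smallest p. From the lists, genes that passed are named, or up to 4 in list order; others named were chosen after their values were seen. One gene of the lists is not reported here. Alternatives were each replicate left out, the animal number as a block, a slope over mg/kg, DESeq2 1.42.0, a mean of 10 counts or no filter, size factors by median ratio, 1 surrogate variable (sva 3.50.0), and the dose group with vehicle alone. Both GC corrections were added after seeing the data.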

Additional observations from a re-analysis of the deposited data

Results flagged for a closer look

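Aif1 in vehicle animal 7 of the prefrontal cortex stood apart at 4.75 CPM (44 counts), with the other 3 vehicle libraries at 3.54 to 3.57 CPM. Itgam in vehicle animal 3 of the striatum stood apart at 25.6 CPM (268 counts), with the other 3 at 20.6 to 21.02 CPM. These were 2 of 108 groups of 4 to 6 libraries checked, where chance alone gives about 5.4.

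For Csf1r at 6 mg/kg every prefrontal cortex library lay below the vehicle mean and every liver library above it. It passed in neither tissue: the log2 fold change was -0.081 (SE 0.0813, adjusted p = 0.80 by edgeR) in the prefrontal cortex, where it was 0.025 with the GC and length offset, and 0.69 (SE 0.206, adjusted p = 0.0669) in the liver. The difference was not tested.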

How the results depend on the processing

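Of 296 recomputed counts of members passing, 280 stayed within 1.5 times the value reported. In the liver at 6 mg/kg (0 reported) DESeq2 gave 3, and the GC and length offset, a mean of at least 10 counts and median-ratio size factors gave 1 each. Leaving out a replicate gave 0 to 3, with 3 (Aif1, C1qa, Csf1r) without 6 mg/kg animal 55 and 2 without animal 56. For the liver slope (0) DESeq2 gave 3, and leaving out a replicate 0 to 3, with 3 without 1 mg/kg animal 41 or 6 mg/kg animal 55. The striatum slope over mg/kg gave 3 (0 over rank). Between regions (2) leaving out a replicate gave 0 to 4: 1 without 0.1 mg/kg animal 24, 1 mg/kg animal 42, 6 mg/kg animal 54 or vehicle animal 7, 0 when vehicle animal 3 was left out, and 4 when 1 mg/kg animal 45 was.

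Same-numbered samples of the 2 brain regions were weakly alike: their mean r was 0.0936 over 21 pairs (12 of them over 0.1, lowest -0.0829), beside -0.0199 for other numbers of the same dose. As not every pair was over 0.1, the numbers were not taken as pairs. Of 21 samples 12 correlated best with their own number among the 4 to 6 of their dose, a hint from the data and not from the design. The replicate block gave 3 members between regions and 0 for the difference of effects (P2ry12 -0.59).

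Of 1128 recomputed single-gene values 40 changed sign, 23 of them with a replicate left out. With the GC slope as covariate the log2 values were -0.034 (C1qa), -0.10 (C1qb), -0.64 (P2ry12) and 0.40 (Itgam) in the liver at 6 mg/kg, -0.048 for the C1qa liver slope, 0.093 (C1qa), -0.029 (Cx3cr1) and -0.013 (Itgam) in the prefrontal cortex, and 0.0088 (P2ry12) in the striatum. With the offset they were -0.04 (C1qb at 1 mg/kg) and 0.025 (Csf1r at 6 mg/kg) in the prefrontal cortex and -0.033 (Tmem119) in the striatum. Values near 0 also crossed it: C1qa in the prefrontal cortex to 0.0016 with a mean of 10 counts and 0.0028 with no filter, and liver Tmem119 to 0.0111 with the dose group and vehicle alone, 0.0031 with a mean of 10 counts and 0.0016 with median-ratio factors. With a replicate left out the ranges at 6 mg/kg were -0.15 to 0.11 (C1qa), -0.040 to 0.089 (Cx3cr1) and -0.016 to 0.17 (Itgam) in the prefrontal cortex, -0.0028 to 0.11 (Cx3cr1) in the striatum, and -0.30 to 0.25 (Cx3cr1) and -0.36 to 0.56 (Tmem119) in the liver. The cause of these changes was not tested. Depth limits the 5 sparse liver genes, at 0 to 35 counts a library.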
